A study of Mus musculus with 12 samples.

Results

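DNA topoisomerase genes were examined in mouse medulloblastomas and cerebella: Top2a and Top2b (the TOP2 forms), Top1 and Top1mt (TOP1), Top3a and Top3b (TOP3), and Topbp1, a checkpoint gene named for binding TOP2. They were chosen by gene symbol, with no measured value in the rule but with earlier results of these data known. They are 7 of the 24091 genes measured. RNA sequencing covered 12 samples in 4 groups of 3. Tumors of Brca2Δex3-4; Trp53-/- mice GB344, GB359 and GB370 were compared with adjacent cerebellum of the same mice and with cerebella of tumor-free genotypes. The tumor-free groups were Brca2Δex3-4; Trp53+/+ (mice GB361, GB508 and GB512) and Brca2WT; Trp53-/- (mice GB517, GB519 and GB520), here pooled as 6 controls. These control cerebella were taken at P90, postnatal day 90, and tumor-bearing mice were taken when they became ill. In the Brca2Δex3-4 animals the human GFAP promoter drives Cre, so Brca2 exons 3 and 4 are deleted in cells of the developing central nervous system that use that promoter. The Trp53 deletion is carried by every cell of the animals that have it. No group was wild type at both genes, so every control carried a mutation shared with the tumors. No control carried both mutations, so comparisons with the controls cannot tell the double genotype apart from the tumor.

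Topoisomerases relieve the twisting and tangling of DNA that copying and reading it create. TOP1 enzymes cut and rejoin a single strand, TOP2 enzymes pass one duplex through a transient break in another, and TOP3 enzymes act on single-stranded regions, TOP3A together with the BLM helicase. TOP2A is made in dividing cells, where it separates and compacts sister chromosomes before mitosis, whereas TOP2B is also made in cells that no longer divide, including neurons, where it acts at transcribed genes.

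The promoters of Top2a and Top2b are shown because Top2a mRNA differed greatly between tumors and control cerebella and Top2b mRNA far less. They were picked with these values known. These are the 250 bases before the start of the RefSeq promoter window on GRCm38.p6, read 5′ to 3′ along the gene's own strand: chr11:99024190-99024439 (minus strand) for Top2a and chr14:16364956-16365205 (plus strand) for Top2b. The RefSeq span of Top2a begins at 99024199, so the last few bases of its window lie within the gene. Capitals mark matches on either strand to CCAAT, the string that the NF-Y complex binds, and to TTTGAA and TTCGAA, forms of the cell cycle homology region (CHR) found in promoters of mitotic genes.
Top2a: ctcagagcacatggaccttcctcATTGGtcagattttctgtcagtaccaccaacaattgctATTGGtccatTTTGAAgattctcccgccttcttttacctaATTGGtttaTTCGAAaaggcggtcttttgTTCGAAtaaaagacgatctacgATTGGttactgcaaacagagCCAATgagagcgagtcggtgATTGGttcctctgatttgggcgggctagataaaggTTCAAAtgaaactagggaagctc
Top2b: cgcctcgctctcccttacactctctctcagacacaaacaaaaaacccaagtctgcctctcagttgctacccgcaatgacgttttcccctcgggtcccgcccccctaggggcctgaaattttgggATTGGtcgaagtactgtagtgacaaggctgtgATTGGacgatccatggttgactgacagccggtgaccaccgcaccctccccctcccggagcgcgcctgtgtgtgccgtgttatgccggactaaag

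The Top2a promoter held 6 matches to CCAAT, of which 5 were in the inverted orientation, and their first bases lay between 227 and 58 bases before the start. Of 32851 promoter windows of the same length in the RefSeq table, 0.0578% held at least 6. It also held 2 matches to TTTGAA, a count reached by 1.81% of all windows, and 2 to TTCGAA, reached by 0.0183%. The Top2b promoter held 2 matches to CCAAT, a count reached by 10.1% of windows, and none to TTTGAA or TTCGAA. The TTTGAA and TTCGAA matches in Top2a did not overlap one another or the CCAAT matches. GC content was 43.6% for Top2a and 57.6% for Top2b, beside a median of 52.4% over all windows.

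Topbp1 (chr9:103305077-103305326, plus strand) is printed for contrast. Its mRNA was also higher in tumors, but its window held neither CCAAT nor a CHR string. The gene's RefSeq span starts at 103305167, inside this window, so much of the window, with its marked match, lies within the gene. Bases further upstream were not examined, so the contrast covers this window only. Its capitals mark the reverse complement of TTTNNCGC, a loose form of the E2F string, which 4.28% of windows held on either strand.
Topbp1: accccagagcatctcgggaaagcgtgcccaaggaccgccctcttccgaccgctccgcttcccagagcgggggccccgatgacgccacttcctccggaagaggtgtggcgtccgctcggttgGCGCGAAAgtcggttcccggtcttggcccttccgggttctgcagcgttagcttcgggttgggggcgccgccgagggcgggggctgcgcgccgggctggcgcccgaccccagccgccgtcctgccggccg

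The Topbp1 window had a GC content of 73.2%, higher than 94.3% of windows. Top1 held 1 match to CACGTG, the E-box string (6.02% of windows), and Top3b held 1 to CCAAT (33.8% of windows). The table has no window for Top1mt or Top3a. A match describes letters in the reference and not a bound site, and no binding was measured in these samples.

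**Figure D1:**
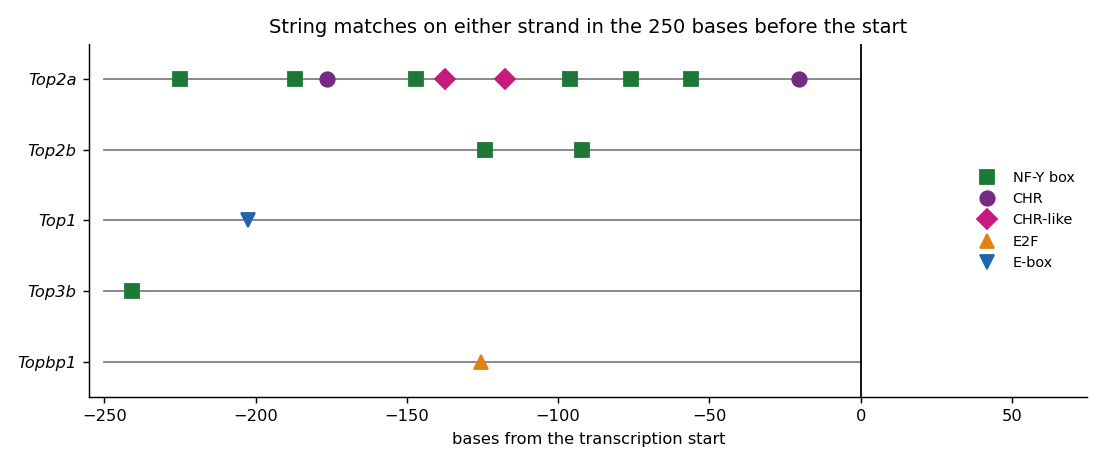
Positions of string matches (symbols, by string name) in the 250 bases before the start used for 5 genes. That start is at 0 on the horizontal axis, in bases. For Topbp1 the gene's RefSeq span begins inside the window, upstream of its match, and for Top2a and Top3b it begins a few bases before 0. Top2a carries 10 of the 15 matches, against 2 for Top2b and 1 each for Top1, Top3b and Topbp1.

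Values were deposited as TPM, a unit of transcript abundance scaled for transcript length and library total, so levels of different genes can be set side by side. Sample totals lay between 999793 and 999876, and between 15088 and 15803 genes reached 1 TPM. TPM keep no record of read depth. The SDs given here are spreads between mice, and the SEs come from the fits described below. In bulk tissue, fewer cells of a type and less RNA per cell cannot be told apart.

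Several libraries bear on what follows. For 7 of 8 markers of granule cell progenitors, the normal counterpart of SHH medulloblastoma, all 3 tumors were above all controls. The same held for 28.3% of all genes tested. Zic1 overlapped, with 454, 638 and 671 TPM in tumors and between 475 and 666 TPM in the controls. Atoh1 had 119, 244 and 319 TPM in tumors against at most 0.212 TPM in the controls. The adjacent cerebella of GB344 and GB359 also carried Atoh1, at 59.4 and 50.5 TPM, and that of GB370 had 5.0 TPM, so none of the adjacent samples matched the controls in this marker. Among the controls, GB512 stood apart, with all 17 of 17 proliferation markers above the other 5 controls, a summed level of 241 TPM against 124 to 144 TPM, and a median ratio of 5.88 to their mean. Across all 16566 genes that reached 1 TPM in a control, GB512 was above the other 5 for 13.0%. Its Atoh1, at 0.0689 TPM, lay within the control range. Its summed microglia markers (150 TPM) were above the 77.2 to 106 TPM of the other 5. The part of these libraries' cell makeup in the topoisomerase values was not tested, and values without them are given beside the results that rest on them.

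The targeted genes do not check the genotype labels in this table, since TPM is summed over all transcripts of a gene and the remaining exons can still give reads. Brca2 had 11.2 ± 3.18 TPM in tumors (SD, n = 3) and 3.68 ± 0.409 TPM in the controls (SD, n = 6). Trp53 had 127 ± 3.19 TPM in tumors, 48.6 ± 1.30 TPM in Brca2WT; Trp53-/- cerebella and 34.8 ± 2.10 TPM in Brca2Δex3-4; Trp53+/+ cerebella (SD, n = 3 each).

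The first comparison set the 3 tumors against the 6 controls. Of the 7 genes, Top2a, Topbp1 and Top3a rose in the tumors, none fell, and 4 did not pass. A gene was said to rise or fall where limma's p, adjusted over all tested genes, was under 0.01 and the log2 fold change of TPM + 1 was at least 1 in size. All 7 genes entered the test. By that rule 14.4% of the 16241 genes tested rose and 21.5% fell. The median log2 fold change was 0.67 for the 7 genes and -0.11 over all genes tested. Scaling shifted the median of all genes to -0.01 by median-of-ratios and to 0.06 by quantile normalization. Leaving Mir6236 out of the total shifted it to -0.14. The 3 calls held under each of these settings.

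Top2a showed the largest change of the 7. In tumors it had 210, 215 and 193 TPM. In the controls it had 0.686, 0.431 and 8.42 TPM in Brca2Δex3-4; Trp53+/+ mice GB361, GB508 and GB512, and 0.277, 0.435 and 0.450 TPM in the Brca2WT; Trp53-/- mice. Thus every tumor was far above every control, the tumors differed little among themselves, and GB512 alone among controls exceeded 1 TPM. The difference was 6.71 (SE 0.56) on the log2 scale, with an adjusted p of 1.82e-06, the 7th highest fold change of all genes tested. As a ratio of mean TPM it was 116 with GB512 and 452 without it. Because 5 of 6 controls lay below 1 TPM, Top2a entered the test through the tumors, and its place among tested genes depended on being high there.

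Top2b was more even. It had 114, 141 and 115 TPM in tumors and between 75.2 and 89.0 TPM in the controls, with a median of 78.0 TPM. The groups did not overlap, and the tumor mean was 1.54 times the control mean (log2 fold change 0.61, SE 0.09). Its adjusted p of 0.00013 was under the threshold, but its fold change was not large enough to pass. Among all genes tested, 26.9% had an adjusted p under 0.01 in the upward direction, and 28.3% had every tumor above every control. In the GRCm38 annotation, 4624 bases of the Top2b gene span overlap Rarb on the opposite strand. Whether exons overlap was not examined, so any effect on its reads is unknown.

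The balance between both TOP2 forms was taken within each sample, where no scaling between samples enters. Top2a made up 64.9, 60.4 and 62.8% of TOP2 mRNA in the tumors. In 5 of the 6 controls it made up between 0.367 and 0.816%, and in GB512 it made up 9.83%. The tumors thus held more Top2a than Top2b, by 1.85, 1.52 and 1.69 times, and every control held more Top2b. The log2 ratio of Top2a to Top2b averaged 0.75 ± 0.14 (SD, n = 3) in tumors and -6.80 ± 1.80 (SD, n = 6) in the controls. The difference of 7.55 had p = 0.0119 by an exact 2-sided permutation test of the samples, the smallest p that this design can give, and 0.0476 after adjustment over 4 comparisons. Left out one at a time, samples moved this difference between 7.29 and 8.27. The ratio was taken from TPM with no pseudocount, and Top2a was under 1 TPM in 5 of the 6 controls. The size of this difference therefore rests on low values.

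**Figure D2:**
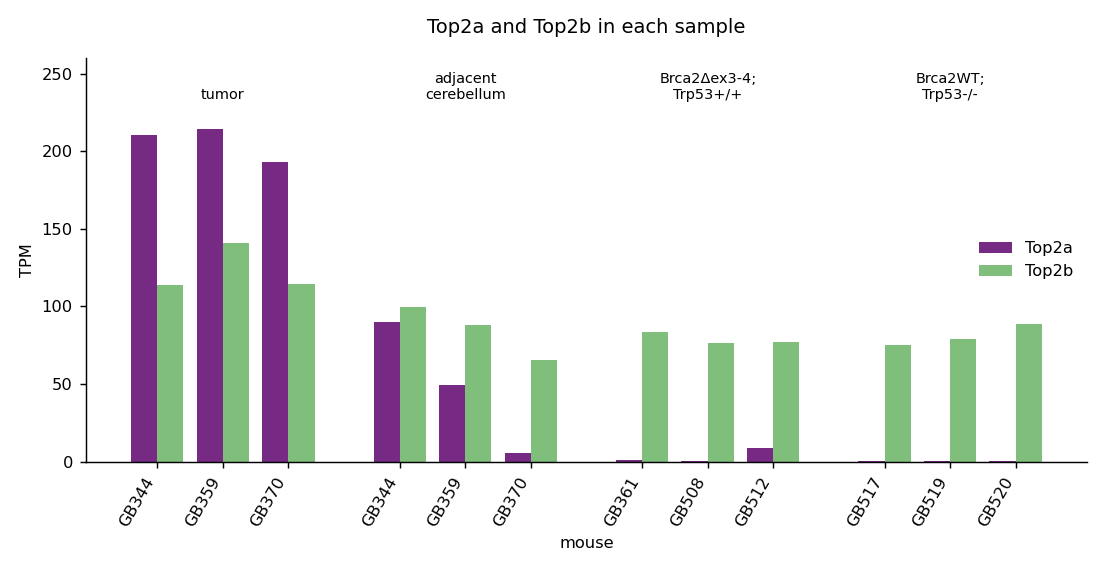
TPM of Top2a (purple bars) and Top2b (green bars) in each of the 12 samples, named by mouse and ordered by group. Top2a exceeds Top2b in the 3 tumors and in no other sample, lies between 5.53 and 89.8 TPM in the adjacent cerebella, and reaches 8.42 TPM in GB512 among the controls.

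Top1, which relaxes DNA ahead of polymerases, had 137, 107 and 96.4 TPM in tumors and between 62.6 and 79.3 TPM in the controls. All tumors were above all controls, yet the tumor mean was only 1.61 times the control mean (log2 fold change 0.67, SE 0.12, adjusted p 0.000493), short of the fold change required. Top1mt, the mitochondrial form, went the other way, with 5.15, 6.74 and 8.15 TPM in tumors and between 13.0 and 14.3 TPM in the controls. All tumors lay below all controls, as for 35.7% of all genes tested, and 34.2% had an adjusted p under 0.01 in the downward direction. The log2 fold change of -0.95 (SE 0.13, adjusted p 6.73e-05) fell just short of the fold change required and reached -1.08 without the tumor of GB370 and -1.04 with a pseudocount of 0.1, which passed. The ratio of Top1 to Top1mt was between 11.8 and 26.6 in tumors and between 4.48 and 5.81 in the controls.

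Top3a, whose product works with BLM and RMI proteins on recombination intermediates, rose. It had 17.0, 15.3 and 15.04 TPM in tumors and between 5.34 and 6.78 TPM in the controls, with no overlap. The log2 fold change was 1.28 (SE 0.11, adjusted p 2.07e-06), or 2.66 times as a ratio of mean TPM. Top3b, a form that also acts on RNA together with TDRD3, did not pass, with 49.9, 65.9 and 80.3 TPM in tumors and between 52.4 and 77.5 TPM in the controls. The tumors spanned the whole control range, and the log2 fold change was -0.07 (SE 0.16, adjusted p 0.695), with a sign that turned positive under median-of-ratios scaling (0.04), under quantile normalization (0.05), against the Brca2Δex3-4; Trp53+/+ controls alone (0.09) and without the tumor of GB344 (0.10). Top3b remained the more abundant of the TOP3 forms in every sample, by 2.94 to 5.34 times in tumors and 9.80 to 12.7 times in the controls.

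Topbp1, which activates the ATR kinase at stalled replication forks and is needed to start replication, had 61.0, 68.9 and 59.0 TPM in tumors. The controls lay between 11.9 and 15.4 TPM, with a median of 14.2 TPM, and no control came near a tumor. The log2 fold change was 2.11 (SE 0.10, adjusted p 4.00e-08), or 4.54 times as a ratio of mean TPM. GB512, which was highest among controls for Top2a, was also highest for Topbp1, at 15.4 TPM, but only slightly above the next control, at 14.4 TPM.

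**Figure D3:**
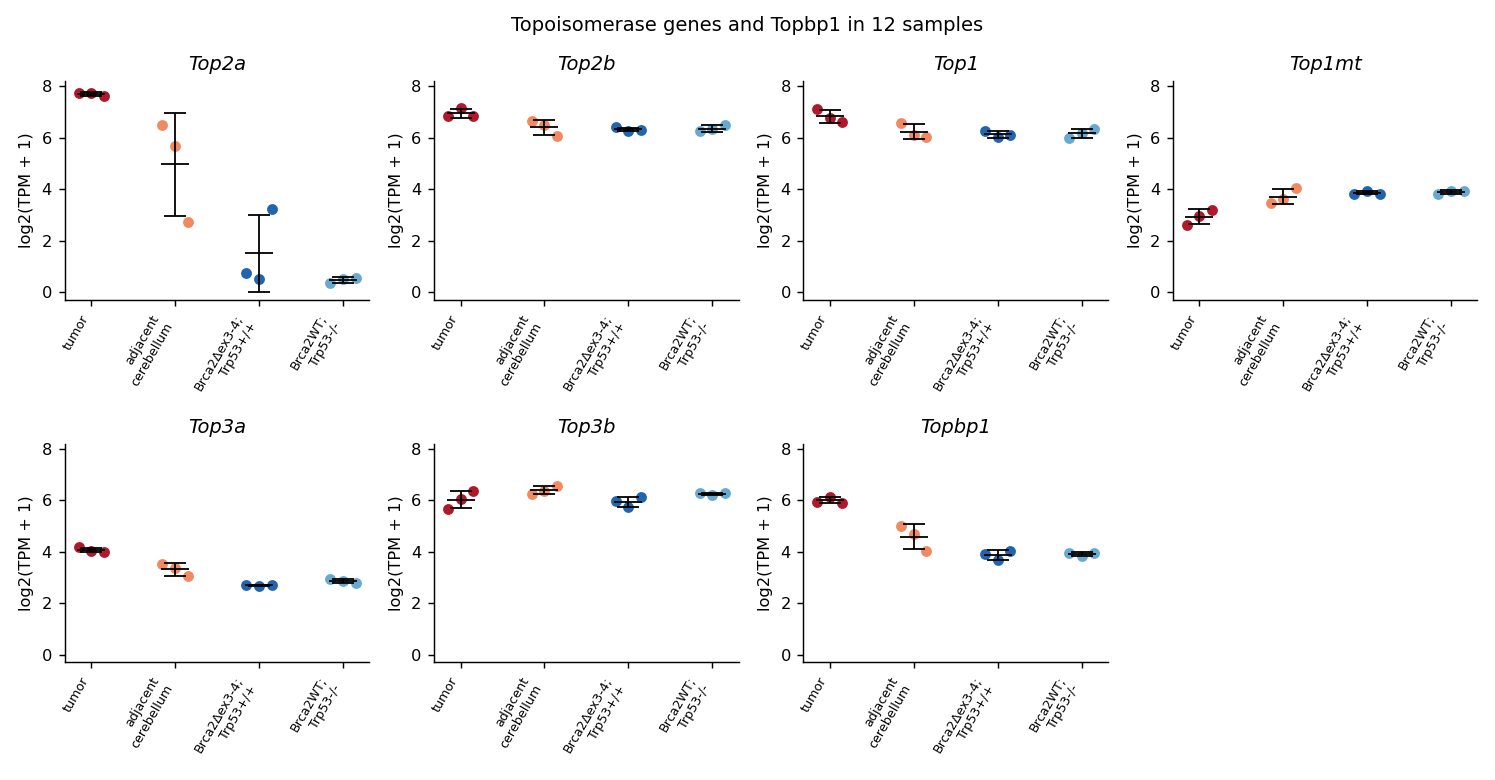
log2(TPM + 1) of each gene in every sample, by group (points: the 3 mice of a group; bars: mean ± SD of the log2 values). Top2a separates tumors from controls most widely, Top3a and Topbp1 follow, Top1mt is lower in tumors, and Top3b overlaps between tumors and controls.

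The order of the genes changed with the group. In the controls, Top2b (mean 80.0 TPM), Top1 (70.3 TPM) and Top3b (68.2 TPM) led, with ranges that overlapped between neighbours in this order. Topbp1 (13.9 TPM) and Top1mt (13.6 TPM) followed, also with overlapping ranges, then Top3a (5.94 TPM) and Top2a (1.78 TPM), which only GB512 carried past Top3a. In the tumors Top2a came first (206 TPM), above Top2b (123 TPM) in all 3. The ranges of Top2b and Top1 overlapped there, as did those of Top3b and Topbp1, and Top3a (15.8 TPM) and Top1mt (6.68 TPM) were last. The 6 topoisomerase genes without Topbp1 summed to between 507.9 and 551 TPM in tumors and between 212 and 265 TPM in the controls. Top2a alone took 38.8 ± 0.719% of that sum in tumors (SD, n = 3).

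Partners of these enzymes were described by lists. The lists were drawn up from known roles, with earlier results of these data in view. Of 9 listed topoisomerase partners 7 were tested, and 2 rose and none fell in tumors against the controls, with a median log2 fold change of 0.69 beside -0.11 over all genes. They were Blm, the helicase that works with TOP3A (1.81, SE 0.12, adjusted p 2.69e-07), and Rmi2, a subunit of the same complex (1.40, SE 0.14, adjusted p 7.94e-06). Outside the naming rule and with their values known, Rmi1, the other subunit, had a log2 fold change of -0.57, and Tdrd3, the partner of TOP3B, had 0.69. Neither passed.

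Of 18 genes for the removal and repair of topoisomerase-DNA adducts, 6 rose and none fell, with a median of 0.91. The largest changes were those of Eme1, a subunit of the MUS81 nuclease (3.89, SE 0.15, adjusted p 1.76e-08), Apex1, the abasic site endonuclease (2.93, SE 0.15, adjusted p 5.86e-08), and Rbbp8, which encodes the end-resection factor CtIP (2.41, SE 0.11, adjusted p 3.77e-08). Outside the naming rule and with its value known, Tdp1, which frees DNA from trapped TOP1, rose from 19.1 to 54.7 TPM (1.48). Its counterpart for TOP2, Tdp2, had 74.9 TPM in tumors and 38.7 TPM in the controls (0.93) and did not pass.

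Of 13 TOPBP1 partners, 7 rose and none fell, with a median of 1.11. Clspn, which encodes the CHK1 adaptor claspin, changed by 3.78 (SE 0.16, adjusted p 2.46e-08). Chek1, the CHK1 kinase, changed by 3.35 (SE 0.16, adjusted p 4.24e-08). Ticrr, the replication initiation factor treslin, changed by 3.10 (SE 0.14, adjusted p 3.87e-08).

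Of 10 chromosome compaction genes that work beside TOP2, 8 rose and none fell, with a median of 3.48. Cenpa, the centromeric histone, changed by 5.43 (SE 0.46, adjusted p 2.11e-06), and the condensin subunits Ncaph and Ncapg by 4.95 (SE 0.31) and 4.64 (SE 0.28). All 17 proliferation markers rose, with a median of 4.78, led by Mki67 (6.06), Aurkb (5.61) and Ccna2 (5.51). Several listed genes were under 1 TPM in most controls, among them Mki67, Aurkb, Ncaph and Ncapg, and Eme1, Ticrr and Atoh1 were in all. Like Top2a, these entered the test through the tumors, so their calls rest on being high there. Between the control genotypes, 10 of 17 proliferation markers and 7 of 10 compaction genes met the filter. The summed level of all 17 proliferation markers was between 2100 and 2515 TPM in tumors and between 124 and 241 TPM in the controls.

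Cell type markers moved with the same contrast. Of 8 progenitor markers 6 rose, with Atoh1 (7.61), Ccnd2 (6.15) and Sfrp1 (5.93) the largest. Of 12 mature granule neuron markers 10 fell and none rose, with Gabra6 at -5.01, Cbln3 at -4.64 and Syt1 at -4.0, and their summed level was between 718 and 1586 TPM in tumors and between 5767 and 7141 TPM in the controls. All 6 Purkinje cell markers fell (Rgs8 -5.56, Car8 -5.54, Pcp2 -5.38), as did all 6 oligodendrocyte markers (Mobp -5.54, Mag -4.64) and 5 of 6 astrocyte markers (Gdf10 -3.82, S100b -2.88, Aqp4 -2.88). Of 6 microglia markers, Aif1 (2.15) and C1qa (1.72) rose, but the other 4 did not pass and the median of the 6 was only 0.14. Of 6 endothelial markers, Slco1a4 (-1.65) and Flt1 (-1.56) fell. The other 4 did not pass, and the median of the 6 was -0.14. Outside the naming rule and with their values known, Cldn5 and Kdr went the opposite way. Cldn5 had 57.5 to 84.3 TPM in tumors against at most 50.5 TPM in the controls. Kdr had 7.57 to 11.7 TPM against at most 6.73 TPM. The 3 red blood cell markers that were analysed fell (Hba-a2 -2.54, Hbb-bs -2.53, Alas2 -1.07). None of 5 choroid plexus markers passed, with log2 fold changes of -5.97 for Ttr and -1.87 for Kl. The part of this change in cell makeup in the topoisomerase differences was not tested.

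**Figure D4:**
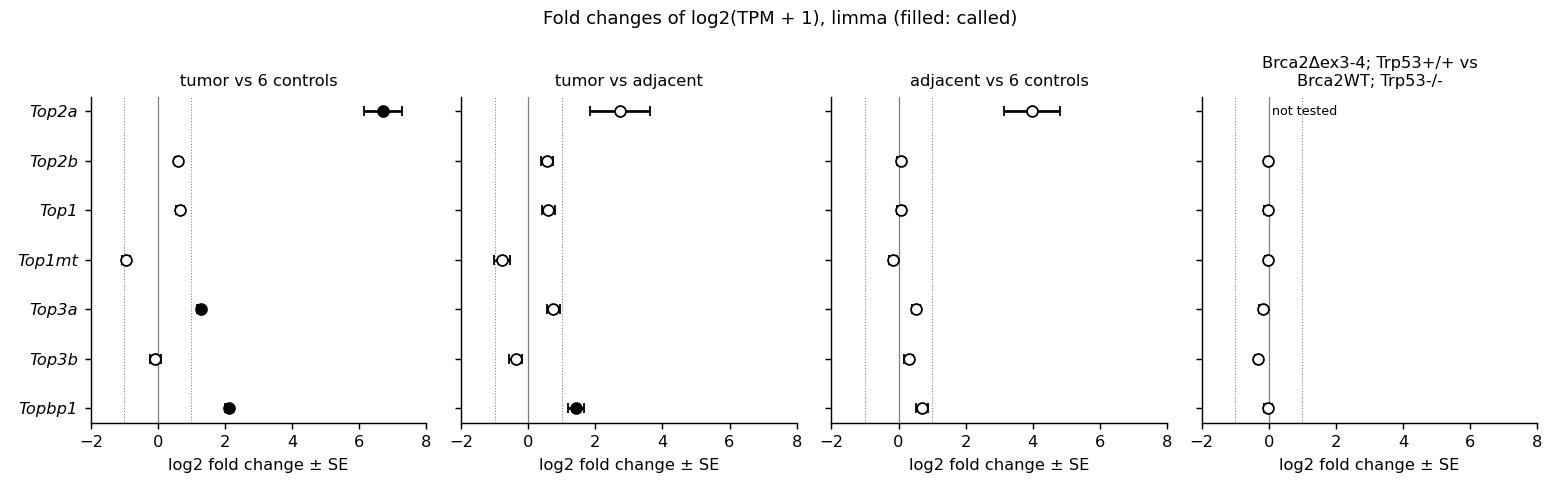
log2 fold changes of TPM + 1 with their standard errors for the 7 genes in each of 4 comparisons, filled where the gene passed limma's test and open where it did not (dotted lines: a log2 fold change of 1 in size). Against the controls Top2a (6.71), Topbp1 (2.11) and Top3a (1.28) are filled in tumors, and against adjacent cerebellum only Topbp1 (1.42) is.

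The comparison of tumors with adjacent cerebellum of the same mice asked how the tumor differed from surrounding tissue. Of the 7 genes only Topbp1 rose and none fell, whereas 4.76% of 15845 genes tested rose and 18% fell. Under quantile normalization the same counts over all genes were 1648 higher and 2136 lower, in place of 755 and 2852, and the median of all genes moved from -0.14 to 0.14. The median of the 7 genes was 0.60 (the value of Top1).

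Topbp1 had 30.9, 25.0 and 15.5 TPM in the adjacent cerebella of GB344, GB359 and GB370, all below every tumor. The log2 fold change was 1.42 (SE 0.24, adjusted p 0.00369). It lost the call by a small margin, with an adjusted p between 0.0104 and 0.0152, when the tumor of GB344, GB359 or GB370 or the adjacent cerebellum of GB359 was left out.

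Top2a had 89.8, 49.5 and 5.53 TPM in the adjacent cerebella, a wide spread in which GB344 was highest and GB370 lowest. Every tumor was above every adjacent sample, as for 23.7% of all genes tested. The log2 fold change of 2.74 (SE 0.88, adjusted p 0.0381) did not pass. Without the adjacent cerebellum of GB370 it was 1.61 and passed (adjusted p 0.00523), and without those of GB344 and GB359 it was 4.99 and passed (adjusted p 0.00559), so its size rests on which adjacent samples were used. Top2b had 99.4, 88.1 and 65.8 TPM, Top1 had 93.0, 68.1 and 63.5 TPM, and Top3a had 10.5, 9.40 and 7.26 TPM, in the same order of mice. For each of these GB344 was highest and GB370 lowest, and all 3 lay below the tumors. Their log2 fold changes were 0.55 (adjusted p 0.0405), 0.60 (adjusted p 0.0400) and 0.75 (adjusted p 0.0138) by limma, and none passed.

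Top1mt had 9.95, 11.3 and 15.3 TPM and Top3b 75.3, 82.2 and 94.1 TPM in the adjacent cerebella, here with GB370 highest. Top1mt was above every tumor (log2 fold change -0.78, adjusted p 0.0305), as 38.9% of genes were. Top3b overlapped with the tumors (-0.37, adjusted p 0.146). Top2a made up 47.5, 36.0 and 7.76% of TOP2 mRNA in the adjacent cerebella, below the tumor in each mouse. The log2 ratio of Top2a to Top2b was higher in the tumor by 1.04, 1.44 and 4.32 in GB344, GB359 and GB370. By an exact 2-sided sign-flip test over 3 mice p was 0.25, the smallest that 3 pairs can give, and by the unpaired exact permutation test the difference of 2.27 had p = 0.1, also the smallest possible. Samples left out one at a time moved that difference between 1.24, without the adjacent cerebellum of GB370, and 2.95.

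Among the partner lists, 1 of 7 tested topoisomerase partners rose against adjacent cerebellum (Blm, 1.06). Of 18 adduct repair genes, Apex1 (1.80), Rbbp8 (1.63) and Fen1 (1.01) rose and Mus81, the catalytic partner of EME1, fell (-1.08). Of 13 TOPBP1 partners, Rhno1 (1.90), Ticrr (1.85) and Mtbp (1.38) rose. Rhno1 is part of the ATR activation machinery, and Mtbp binds treslin. Of 10 compaction genes only Ncapg2 (2.0) rose, and of 17 proliferation markers only Pcna (1.74), although no adjacent sample reached the lowest tumor for any of the 17. Rhno1, Mtbp, Mus81, Fen1, Ncapg2 and Pcna were named after their values were seen.

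Adjacent cerebellum was then compared with the 6 controls. The adjacent cerebella came from tumor-bearing mice with both mutations, and no control had both. Genotype, tumor bearing and tumor cells in the samples cannot be told apart in this comparison. None of the 7 genes passed. Over all 16091 genes tested 0.236% did, while 5551 genes (34.5%) had an unadjusted p under 0.05 by limma. Top3a and Topbp1 did not overlap between the groups, as 11.7% of genes did not in the upward direction. Top3a was at 7.26 to 10.5 TPM against at most 6.78 TPM (log2 fold change 0.53, SE 0.13, adjusted p 0.0280). Topbp1 was at 15.5 to 30.9 TPM against at most 15.4 TPM (0.69, SE 0.18, adjusted p 0.0315). Top2a differed by 3.97 (SE 0.84, adjusted p 0.0194), and its groups overlapped, since the adjacent cerebellum of GB370 (5.53 TPM) lay below the control GB512 (8.42 TPM). Without the adjacent cerebellum of GB370 its difference was 5.10 and passed (adjusted p 0.00123).

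Among the partner lists none of 7 topoisomerase partners, 17 adduct repair genes, 13 TOPBP1 partners, 10 compaction genes or 17 proliferation markers passed, with median log2 fold changes of 0.22, 0.26, 0.18, 1.35 and 2.25 beside 0.07 over all genes. Of 8 progenitor markers only Atoh1 passed (4.62, SE 0.60, adjusted p 0.00883).

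The other topoisomerase genes were close to the controls. The log2 fold changes were 0.06 for Top2b (SE 0.12), 0.07 for Top1 (SE 0.12), -0.17 for Top1mt (SE 0.12) and 0.30 for Top3b (SE 0.13), with adjusted p between 0.125 and 0.749 by limma. The log2 ratio of Top2a to Top2b was -0.15, -0.83 and -3.57 in the adjacent cerebella. It was 5.28 above the controls (exact permutation p = 0.0238, or 0.0476 after adjustment over 4 comparisons), with the overlap by GB370 and GB512 described above.

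The adjacent samples were also placed between the control mean (0%) and the tumor of the same mouse (100%), on the TPM scale. Top2a stood at 42.2, 22.4 and 1.96% of that way in GB344, GB359 and GB370, and Topbp1 at 36.0, 20.2 and 3.71%. Top3a stood at 41.2, 36.8 and 14.5%, so its level in GB370 lay further toward the tumor. Proliferation markers that rose in tumors had medians of 40.7, 23.2 and 1.42% over 17 genes, and progenitor markers 52.8, 25.4 and 2.08% over 6. Mature granule neuron markers that fell had medians of 28.3, 2.22 and -4.0% over 10. Chromosome compaction genes (8 genes) had 40.2, 22.4 and 1.04%, TOPBP1 partners (7 genes) 37.8, 23.6 and 1.02%, and adduct repair genes (6 genes) 31.7, 27.2 and 2.88%. Purkinje cell markers that fell had medians of 34.0, 32.6 and 16.2%. The values above all ran in the order GB344, GB359, GB370, and other lists that fell did not. Oligodendrocyte markers had medians of 63.8, 9.30 and 56.5% over 6 genes, astrocyte markers 31.6, 32.6 and 24.6% over 5, and red blood cell markers 51.4, 6.08 and 66.9% over 3. The part of tumor cells in the adjacent samples was not tested.

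**Figure D5:**
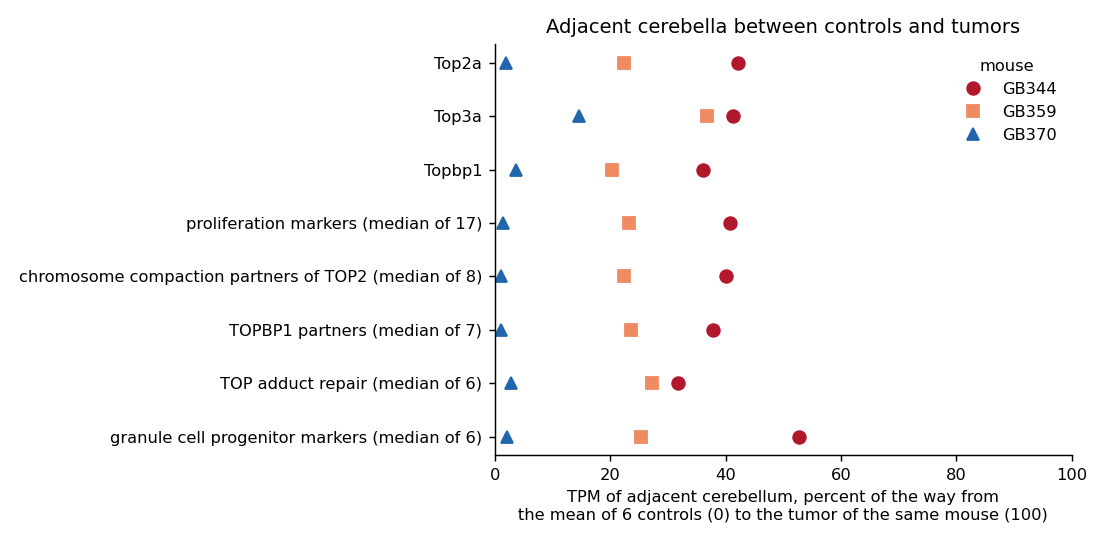
Level of each adjacent cerebellum as a percent of the way from the mean of the 6 controls (0) to the tumor of the same mouse (100), for the 3 genes that rose in tumors and for the medians of 5 gene lists (symbols: mice). GB370 lies under 4% for every entry except Top3a (14.5%), and GB344 lies between 31.7 and 52.8%.

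The control genotypes were compared with each other. They differ at both Brca2 and Trp53, so the comparison cannot tell the mutations apart, and changes common to both would not appear in it. Of 6 genes tested none passed, and over 15575 genes 0.0578% passed, while 3123 genes had an unadjusted p under 0.05 by limma. Top2a was too low to be tested, and when included its log2 fold change was 1.03 (SE 0.69, adjusted p 0.504), carried by GB512. Top2b (-0.03, SE 0.08), Top1 (-0.04, SE 0.10), Top1mt (-0.04, SE 0.09) and Topbp1 (-0.03, SE 0.11) had small differences and overlapping groups. Top3b had 61.9, 52.4 and 68.2 TPM in the Brca2Δex3-4; Trp53+/+ cerebella and 77.5, 73.2 and 76.3 TPM in the Brca2WT; Trp53-/- cerebella. Top3a had between 5.34 and 5.57 TPM in the former and between 6.0 and 6.78 TPM in the latter. Both genes were lower in every Brca2Δex3-4; Trp53+/+ cerebellum, as 20.3% of genes were, and neither passed (-0.32, adjusted p 0.150, and -0.19, adjusted p 0.376). The Brca2WT; Trp53-/- cerebella also held summed choroid plexus markers of 3962 to 5183 TPM against 17.7 to 877 TPM, which moved with the same contrast, and their part in the result was not tested. The log2 ratio of Top2a to Top2b differed by 1.87 (exact permutation p = 0.1, the smallest possible), and by 0.54 without GB512 (exact permutation p = 0.2).

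Genes with the pattern most like Top2a were found by Pearson correlation of log2(TPM + 1) over the 12 samples among 16498 genes, as a description, since the samples fall into clusters. They were Mki67 (r = 0.997), Spc25, a kinetochore subunit (0.997), Uhrf1, a factor that maintains DNA methylation (0.996), Ccna2, cyclin A2 (0.996), and Hist1h2ao, a histone gene of a near-identical family whose level is uncertain (0.995). Top2a varied 775-fold over the 12 samples, and the ratio of its TPM to that of Mki67, set side by side after seeing this, stayed between 1.31 and 2.66. The ratio was 1.53 to 2.43 in tumors, 1.49 to 2.03 in adjacent cerebella and 1.49 in GB512. Topbp1 had r = 0.944 with Top2a (rank 465 from the highest r), Top3a 0.928 (rank 744), Top2b 0.80 (rank 3310) and Top1 0.765 (rank 3736). Top3b had -0.05 and Top1mt -0.86. Correlations of this size were thus shared by many other genes.

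Genes most like Top2b were Ptbp3, an RNA-binding splicing regulator (r = 0.991), Haus2, an augmin subunit (0.985), Scaf11, a splicing factor (0.982), Usp37, a deubiquitinase (0.977), and Sp3, a transcription factor (0.976). No gene was among the 5 most similar to both. Topbp1 had r = 0.916 with Top2b (rank 533), Top1 0.872 (rank 1649), Top3a 0.855 (rank 2116), Top3b -0.28 and Top1mt -0.88.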

How the data were processed

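RNA from 12 mouse samples was sequenced by the authors (poly(A) selection, 75 bp reads). Per the labels and the study's methods, transcripts were quantified on mm10 with Salmon 0.8.1. Gene sums came from tximport 1.20 with the annotation package TxDb.Mmusculus.UCSC.mm10.knownGene 3.4.0. The deposited values are TPM for 24091 genes, with no filter stated. TPM hold no counts, so read depth is unknown and no interval or floor is given. Of the sample columns, 0 were left unused. The labels name the mouse of each sample. P-values set a difference against the spread between samples of a group, which limma moderates over genes. The main fit of tumors against adjacent cerebellum did not use the pairing by mouse.

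For 4 comparisons, limma 3.58.1 (R 4.3.3; eBayes, trend by intensity) was run on log2(TPM + 1) of every gene that reached 1 TPM in 3 or more of the samples compared. P-values were adjusted by Benjamini-Hochberg across those genes, and each fit held only the groups compared. Fold changes of low genes on this scale are smaller than their TPM ratios. The study's own thresholds were used (0.01 for the adjusted p, 1 for the size of the log2 fold change). The comparisons with controls share the same 6 samples, and those with tumors the same 3. Ratios of Top2a to Top2b used TPM with no pseudocount and were tested by exact permutation. Where Top2a was low, their size rests on low values. Other steps used Python 3.11.15, numpy 2.4.6, pandas 2.3.3 and matplotlib 3.10.9.

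Tumor and adjacent cerebellum of a number come from the same mouse. Deviations from group means correlated at 0.249, 0.176 and 0.152 within GB344, GB359 and GB370 over 15845 genes, and between -0.163 and 0.02 across mice. The members and lists were chosen with earlier results of these data known. Named genes were the 7 members, up to 3 genes of each list with the largest change among those that passed in tumors against controls (for a list with none, the 2 highest by mean TPM), the 5 genes most correlated with Top2a and with Top2b, and Brca2 and Trp53. Exceptions are stated, and 1 gene that the rule names is not reported here. Promoters and gene positions were from RefSeq GRCm38.p6, which matched 24041 of 24091 identifiers. Protein sequences were not analysed here. Top6bl, Hba-a1 and Hbb-bt of the lists were not analysed here, and Hba-a2 may share reads with a near-identical copy.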

Additional observations from a re-analysis of the deposited data

Results flagged for a closer look

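Among the 6 control cerebella, GB512 (Brca2Δex3-4; Trp53+/+) stood far from the others in Top2a, at 8.42 TPM. Its gap to the next control was 0.950 of the whole range, above the critical value of 0.625 for 6 samples. The log2 ratio of Top2a to Top2b in GB512 was -3.20, with a gap of 0.763 of the range. Both values rest on the same Top2a measurement. Chance takes about 1 in 20 groups past the critical value, and 8 measures were examined here. No other of the 7 genes was flagged in this way. In GB512, 7 of 10 chromosome compaction genes and 7 of 13 TOPBP1 partners were also above the other 5 controls. The same held for 4 of 18 adduct repair genes, 0 of 8 topoisomerase partners and 0 of 12 mature granule neuron markers. The share over all genes was 13.0%. The compaction genes had a median ratio of 1.56 to the mean of the other 5. For the TOPBP1 partners it was only 1.12, and their sum of 144 TPM lay within the 111 to 146 TPM of the other 5.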

How the results depend on the processing

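Under 20 alternatives, the fold change against controls stayed between 6.19 and 7.91 for Top2a, 1.19 and 1.46 for Top3a and 2.04 and 2.25 for Topbp1, and all passed. With an adjusted p under 0.05 and no fold change minimum, the genes called were 6 for tumors against controls, 6 against adjacent cerebellum and 3 for adjacent cerebellum against controls, where that rule called 71.3, 50.4 and 15.7% of all genes tested. Quantile normalization called 2 for tumors against adjacent cerebellum (Top3a, 1.09, was added). Left out one at a time, samples gave 3 to 4, 0 to 2, 0 to 1 and, between control genotypes, 0 genes. The alternatives without adjacent GB344 and GB359 were added after seeing the data. They called 2 genes for tumors against adjacent cerebellum, where the lone adjacent sample was assumed to vary like the tumors, and 0 for adjacent cerebellum against controls (Top2a 1.72, adjusted p 0.374 by limma). With control GB512 also left out, 1 was called there (Top2a, 2.17).

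With the mouse as a replicate block, 1 gene, Topbp1, was called for tumors against adjacent cerebellum, as without pairing, and the block changed no other call among the 7 genes.

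With 1 control genotype, 3 samples against 3 cannot reach a p under 0.1. The log2 ratio of Top2a to Top2b in tumors then differed by 6.61 from Brca2Δex3-4; Trp53+/+ and 8.49 from Brca2WT; Trp53-/- cerebella (exact p = 0.1 each). In adjacent cerebella it differed by 4.35 (exact p = 0.2) and 6.22 (exact p = 0.1). Without a sample in turn, that ratio in adjacent cerebella against controls was between 4.60 and 6.31, and without GB344 or GB359 its exact p was 0.0714.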

Other observations

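Gene length was described because TOP1 and TOP2B are known to act in the transcription of long neuronal genes. Of genes tested in tumors against controls, 2205 span 100 kb or more, and their median log2 fold change was -0.57, beside -0.05 for 14015 shorter genes. Among the long genes 36.7% fell and 9.43% rose, against 19.1% and 15.2% of the shorter ones. Against adjacent cerebellum the medians were -0.51 and -0.09. Between adjacent cerebellum and controls they were -0.02 and 0.08. Neuronal markers fell in the same tumors, and their part in this difference was not tested. The 7 genes themselves span 21.8 kb (Top1mt) to 76.9 kb (Top1) and belong to the shorter class.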
